A study of Homo sapiens with 2 samples.

Results

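The genes described here are 10 regulators and partners of the KEAP1-NRF2 pathway, chosen by symbol from a list of known pathway components and found in the count tables through a GRCh37 annotation; all 10 were present among 63677 gene IDs, and all 10 were measured, that is, had a mean of at least 1 CPM (counts scaled to library size by TMM). MDA-MB-231, an established line of triple-negative breast carcinoma cells, was profiled by bulk RNA sequencing. The treated group is 1 library from cells given Carpesium cernuum extract (CCE), a plant extract, at 1 µg/mL for 24 h. The control group is 1 library from the same line, labelled as control; its labels carry the same treatment text, so what was added to the control cells remains unstated. No genetic change was labelled in either group, and the composition of the extract is not described.

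NRF2, encoded by NFE2L2, is a transcription factor that pairs with a small MAF protein and binds antioxidant response elements in the promoters of detoxification genes. In unstressed cells KEAP1 bridges NRF2 to the CUL3 ubiquitin ligase, and NRF2 is degraded; reactive electrophiles modify cysteines of KEAP1, and NRF2 then accumulates. BACH1 occupies many of the same elements as a heme-regulated repressor, the autophagy receptor p62, encoded by SQSTM1, sequesters KEAP1, and several pathway components are themselves known NRF2 targets. Much of this control acts on protein, which these libraries did not measure.

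The promoters were examined for letters of the antioxidant response element, the sequence that NRF2 and BACH1 bind with a small MAF partner. RefSeq windows from 250 bases before to 50 bases after each start (GRCh38.p14) were found for 9 of the 10 genes, 18 windows in all. Both strands were searched for TGACNNNGC, a core of the element, and for TGANTCAGC, which contains an AP-1 type site and overlaps the first pattern where its N is C. The first pattern lay in 2 of the 18 windows (11.1%), against 13.3% of all 35116 windows in the RefSeq table, and the second in 1 of 18 (5.56%), against 1.36%. The windows with a match belong to OSGIN1, KEAP1 (the second of its 2 starts) and MAFF (the first of its 2 starts), and they are shown with the matched letters in capitals; the match in OSGIN1 is to the second pattern, and those in KEAP1 and MAFF are to the first. The window of SQSTM1 at the third of its 3 starts is shown beside them because that gene had by far the most counts. It holds no match to either pattern, which says only that these letters are not in this window.
OSGIN1, chr16:83952990-83953289, plus strand: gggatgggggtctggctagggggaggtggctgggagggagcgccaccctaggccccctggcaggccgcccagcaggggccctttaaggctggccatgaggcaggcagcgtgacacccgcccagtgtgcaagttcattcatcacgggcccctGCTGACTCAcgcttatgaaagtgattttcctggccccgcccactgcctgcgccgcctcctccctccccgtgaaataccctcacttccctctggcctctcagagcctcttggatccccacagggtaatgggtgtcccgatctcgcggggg
KEAP1, chr19:10502722-10503021, minus strand: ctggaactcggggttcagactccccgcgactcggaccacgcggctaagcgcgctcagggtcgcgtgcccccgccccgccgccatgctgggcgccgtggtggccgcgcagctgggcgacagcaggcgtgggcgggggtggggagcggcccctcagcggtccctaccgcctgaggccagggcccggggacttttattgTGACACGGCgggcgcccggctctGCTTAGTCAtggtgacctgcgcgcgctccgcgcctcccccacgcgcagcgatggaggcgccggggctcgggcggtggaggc
MAFF, chr22:38201744-38202043, plus strand: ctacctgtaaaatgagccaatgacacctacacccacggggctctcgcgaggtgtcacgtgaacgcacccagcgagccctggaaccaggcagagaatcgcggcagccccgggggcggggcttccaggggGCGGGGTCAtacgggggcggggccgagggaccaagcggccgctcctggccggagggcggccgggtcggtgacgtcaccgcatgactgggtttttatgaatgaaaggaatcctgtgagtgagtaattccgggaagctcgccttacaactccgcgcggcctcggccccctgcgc
SQSTM1, chr5:179820655-179820954, plus strand: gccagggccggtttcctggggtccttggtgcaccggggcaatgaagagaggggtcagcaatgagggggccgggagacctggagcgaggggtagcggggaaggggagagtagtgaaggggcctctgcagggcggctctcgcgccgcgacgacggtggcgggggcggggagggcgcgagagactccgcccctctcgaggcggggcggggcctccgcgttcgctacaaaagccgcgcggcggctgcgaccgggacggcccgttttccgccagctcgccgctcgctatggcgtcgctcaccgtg
The OSGIN1 match begins 99 bases before the start. The 2 KEAP1 matches begin 54 and 31 bases before it, and the MAFF match 122 bases before it.

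Genes held 34884501 counts in the CCE library and 5633569 in the control library, so 1 count was worth 0.0283 CPM in the CCE library and 0.180 CPM in the control library. The line was checked against its markers: VIM, CD44, AXL, ZEB1, CAV1 and MSN, which mesenchymal breast lines express, had 97.4 to 1801 CPM in the CCE library and 76.8 to 3739 CPM in the control library, while SPARC had 0.736 and 0.899 CPM. Of 7 luminal and epithelial markers, ESR1 and FOXA1 had 0 counts in both libraries, CDH1 and PGR had 1 and 6 counts in the CCE library and 0 in the control library, GATA3 and EPCAM had at most 10.1 CPM in either, and KRT19 had 103 CPM in the CCE library and 157 CPM in the control library. With 1 library in each group no test was possible and no p-value is given. Intervals are exact 95% counting intervals, cover counting error only, and say nothing of how cultures vary. Bulk libraries cannot tell fewer expressing cells from less RNA per cell.

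By counts, OSGIN1 and SQSTM1 passed the call as higher in the CCE library, while the RNA of the transcription factors NRF2 and NRF1 was within 1.14-fold of the control. OSGIN1, a stress-induced growth inhibitor and known NRF2 target, was 2.11-fold higher and SQSTM1 1.60-fold higher. BACH1, MAFG and KEAP1 were 1.41-, 1.34- and 1.33-fold higher, NFE2L2 and CUL3 1.14- and 1.12-fold. By the authors' FPKM, SQSTM1 and OSGIN1 were also higher in the CCE library. KEAP1, CUL3, MAFG, MAFK, NFE2L1 and NFE2L2, all above their control levels by counts, were lower by FPKM, and MAFF was lower by both. By counts, MAFF was the only member of the 10 below its control level, at 0.783 of it. Of the 10 genes, 2 were called at least 1.5-fold higher with an interval that excluded 1 and 0 were called lower, where 12.1% of the 14424 measured genes (mean of at least 1 CPM) were called higher and 11.3% lower. At 2-fold, OSGIN1 alone was called higher and 0 were lower, where 4.36% and 4.92% of measured genes were called. At any fold, the interval lay above 1 for 7 of the 10, where 30.1% of measured genes were higher in this sense, and below 1 for 1, where 25.1% were lower. Whether an interval excludes 1 depends on the number of counts. Each of the 10 had at least 749 counts in the CCE library and 100 in the control library, while measured genes reach down to 1 CPM. No share over genes of like counts is given, so the 7 of 10 cannot be read as an excess over 30.1%. The median log2 ratio of the 10 was 0.33, and that of all measured genes 0.05. The members were chosen with earlier results of these data known, so these counts are a description of them.

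**Figure D1:**
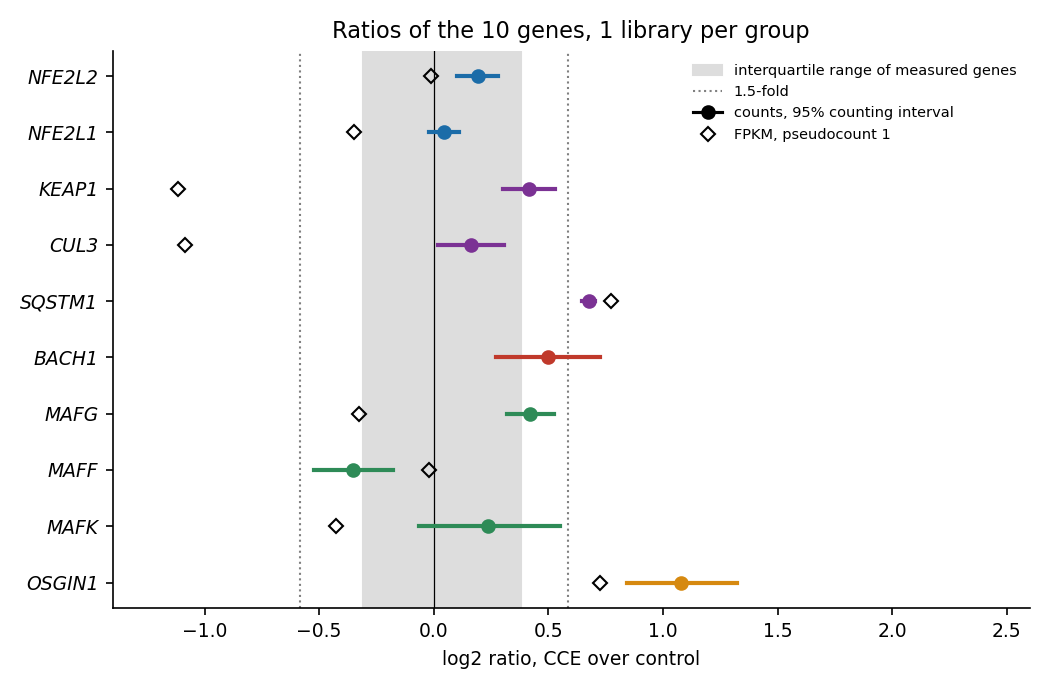
Log2 ratio of library-scaled counts, CCE over control, for each of the 10 genes, with filled points for counts, bars for 95% counting intervals, and open diamonds for the authors' FPKM at a pseudocount of 1 (BACH1, listed at 0 FPKM in the control library, has none). Colours mark roles: blue for activators, purple for KEAP1, CUL3 and SQSTM1, red for the repressor, green for small MAFs, orange for the target OSGIN1. SQSTM1 and OSGIN1 lie beyond 1.5-fold by counts and by FPKM, MAFF lies below 0, and the FPKM diamonds of KEAP1 and CUL3 lie at -1.12 and -1.09.

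Both activators were near their control levels by counts, while by FPKM NFE2L1 was lower. NFE2L2, on chromosome 2 from 178083395 to 178257484 (GRCh37, minus strand), had 8431 counts or 239 CPM in the CCE library, against 1161 counts or 209 CPM in the control library. Its ratio of 1.14 (1.07 to 1.22) was exceeded by 38.4% of measured genes. The exons annotated for NFE2L2 overlap those of HNRNPA3, an RNA-binding protein gene on the opposite strand, by 3509 bases. HNRNPA3 had 7548 counts in the CCE library and 1842 in the control library, a log2 ratio of -0.63, on the other side of 0 from NFE2L2. The strand setting of the counting is not given, so reads from the shared bases cannot be told apart. NFE2L1, which encodes the membrane-anchored factor NRF1 that drives proteasome genes when proteasomes are impaired, lies on chromosome 17 from 46125691 to 46138907. It had 14067 counts or 398 CPM in the CCE library and 2147 counts or 386 CPM in the control library, a ratio of 1.03 (0.985 to 1.08) whose interval included 1. By upper-quartile scaling the log2 ratio of NFE2L1 was -0.0011, against 0.044 by TMM. By FPKM at a pseudocount of 1 the log2 ratio of NFE2L1 was -0.35, outside its counting interval, and that of NFE2L2 was -0.012.

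KEAP1 and CUL3 were not called by counts, and their direction depended on the measure. KEAP1, on chromosome 19 from 10596801 to 10614234, had 6168 counts or 175 CPM in the CCE library, against 728 counts or 131 CPM in the control library, 1.33-fold higher (1.23 to 1.44). KEAP1 overlaps no exon of another annotated gene. CUL3, the scaffold of the ligase, on chromosome 2 from 225334867 to 225450114, had 3213 counts or 90.9 CPM in the CCE library, against 452 counts or 81.3 CPM in the control library. Its ratio of 1.12 (1.01 to 1.24) reached down almost to 1, and its log2 ratio against genes of like GC content was -0.01. By FPKM, KEAP1 and CUL3 were lower in the CCE library, with log2 ratios of -1.12 and -1.09 at a pseudocount of 1.

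SQSTM1 was the most abundant of the 10 and its ratio had the narrowest counting interval. It lies on chromosome 5 from 179233398 to 179265078 and had 111931 counts or 3167 CPM in the CCE library, against 11025 counts or 1983 CPM in the control library, 1.60-fold higher (1.57 to 1.63). A higher ratio was found for 11.5% of measured genes. MRNIP, a DNA repair gene on the opposite strand whose exons overlap those of SQSTM1 by 1582 bases, had 78334 counts in the CCE library and 7184 in the control library, a log2 ratio of 0.78, beside 0.68 for SQSTM1. By FPKM, MRNIP had 57.2 in the CCE library and 3.51 in the control library, where SQSTM1 had 1036 and 605. The strand setting of the counting is not given, so reads of this overlapping pair cannot be told apart. The second overlapping neighbour, MGAT4B, had a log2 ratio of -0.09.

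**Figure D2:**
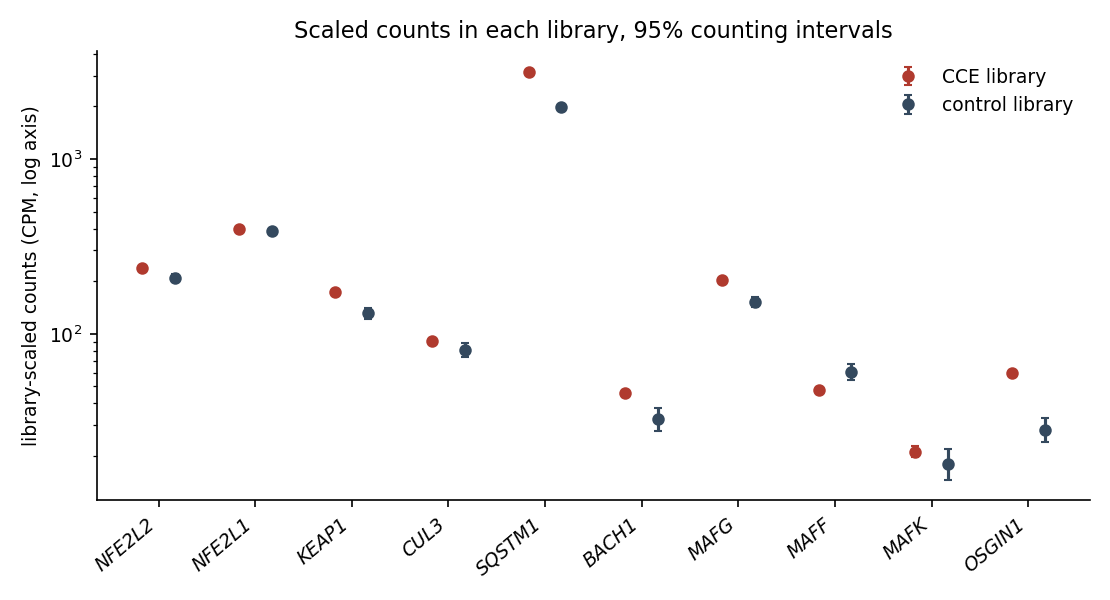
Library-scaled counts (CPM, log axis) of each gene in the CCE library (red, left) and the control library (dark blue, right), with 95% Poisson intervals of the counts. The pairs of points are widest apart for OSGIN1, at 59.6 CPM in the CCE library and 28.2 CPM in the control library, and the CCE point is the lower of the pair only for MAFF.

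BACH1, the repressor that competes with NRF2 for small MAF partners, lies on chromosome 21 from 30566392 to 31003071. It had 1614 counts or 45.7 CPM in the CCE library and 180 counts or 32.4 CPM in the control library, 1.41-fold higher (1.21 to 1.65). The interval spans 1.5-fold. Of the 3 counted genes that share exon bases with BACH1, GRIK1 had 7 counts in the CCE library and 0 in the control library, and the other two had 0 in both. The ratio of BACH1 to NFE2L2 counts, which no library scaling can alter, was 0.191 in the CCE library and 0.155 in the control library, 1.23 times higher (1.04 to 1.47). Reads from the exon bases that NFE2L2 shares with HNRNPA3 could enter each ratio to NFE2L2, and their part was not tested. KEAP1 also stood higher against NFE2L2, at 0.732 counts for each NFE2L2 count in the CCE library and 0.627 in the control library, 1.17 times higher (1.06 to 1.29); by FPKM the ratio ran the other way, at 0.547 in the CCE library and 1.24 in the control library. CUL3 stood lower against KEAP1, at 0.521 in the CCE library and 0.621 in the control library, a ratio of ratios of 0.839 (0.739 to 0.953). SQSTM1 had 18.1 counts for each KEAP1 count in the CCE library and 15.1 in the control library, 1.20 times higher (1.11 to 1.30), and by FPKM 3.92 times higher. NFE2L1 for each NFE2L2 count was 1.67 in the CCE library and 1.85 in the control library, a ratio of ratios of 0.902 (0.835 to 0.974). For MAFG against BACH1 it was 0.949 (0.797 to 1.13), an interval that included 1.

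The 3 small MAF genes, whose products dimerise with NRF2, NRF1 and BACH1 and have no activation domain of their own, had ratios on both sides of 1. MAFG, on chromosome 17 from 79876146 to 79885611, had 7194 counts or 204 CPM in the CCE library, against 845 counts or 152 CPM in the control library, 1.34-fold higher (1.25 to 1.44). MAFF, on chromosome 22 from 38596774 to 38612514, had 1678 counts or 47.5 CPM in the CCE library, against 337 counts or 60.6 CPM in the control library, a ratio of 0.783 (0.696 to 0.883). MAFK, on chromosome 7 from 1570338 to 1582679, had 749 counts or 21.2 CPM in the CCE library and 100 counts or 17.98 CPM in the control library, and its ratio of 1.18 had an interval that included 1 (0.955 to 1.47).

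The make-up of the small MAF genes differed between the libraries by counts, and in the other direction by FPKM. MAFF counts for each MAFG count were 0.233 in the CCE library and 0.399 in the control library, a ratio of ratios of 0.585 (0.509 to 0.673), free of library scaling. Of their summed counts, MAFF held 17.4% (16.7 to 18.2, exact binomial) of 9621 in the CCE library and 26.3% (23.9 to 28.8) of 1282 in the control library. MAFG held 74.8% and 65.9%, and MAFK 7.79% and 7.80%. By FPKM, MAFF held 29.0% of the sum in the CCE library and 24.5% in the control library, and its ratio to MAFG was 0.472 and 0.380. The summed counts of the 3 were 1.18-fold higher (1.11 to 1.25). MAFK against MAFG had a ratio of ratios of 0.880 (0.704 to 1.11), an interval that included 1. Neighbours on the opposite strand share exon bases with MAFF and MAFK: PLA2G6, a phospholipase gene overlapping MAFF, had 91 counts in the CCE library and 19 in the control library, and TMEM184A, overlapping MAFK by 809 bases, had 633 and 112. TMEM184A was thus counted nearly as often as MAFK, at 0.439 FPKM in the CCE library and 0 FPKM in the control library. SIRT7, which shares 105 exon bases with MAFG on the same strand, was 1.22-fold higher.

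OSGIN1 had the highest ratio of the 10. It lies on chromosome 16 from 83964916 to 83999937 and had 2108 counts or 59.6 CPM in the CCE library, against 157 counts or 28.2 CPM in the control library, 2.11-fold higher, a log2 ratio of 1.08 (0.84 to 1.32). A higher ratio was found for 4.06% of measured genes. Against NFE2L2, OSGIN1 had 0.250 counts for each NFE2L2 count in the CCE library and 0.135 in the control library, 1.85 times higher (1.55 to 2.21). MLYCD, a malonyl-CoA decarboxylase gene upstream on the same strand that shares 457 exon bases with OSGIN1, had 202 counts in the CCE library and 12 in the control library, a log2 ratio of 1.41 (0.57 to 2.38). The promoter window of OSGIN1 is the single member window with a TGANTCAGC match.

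**Figure D3:**
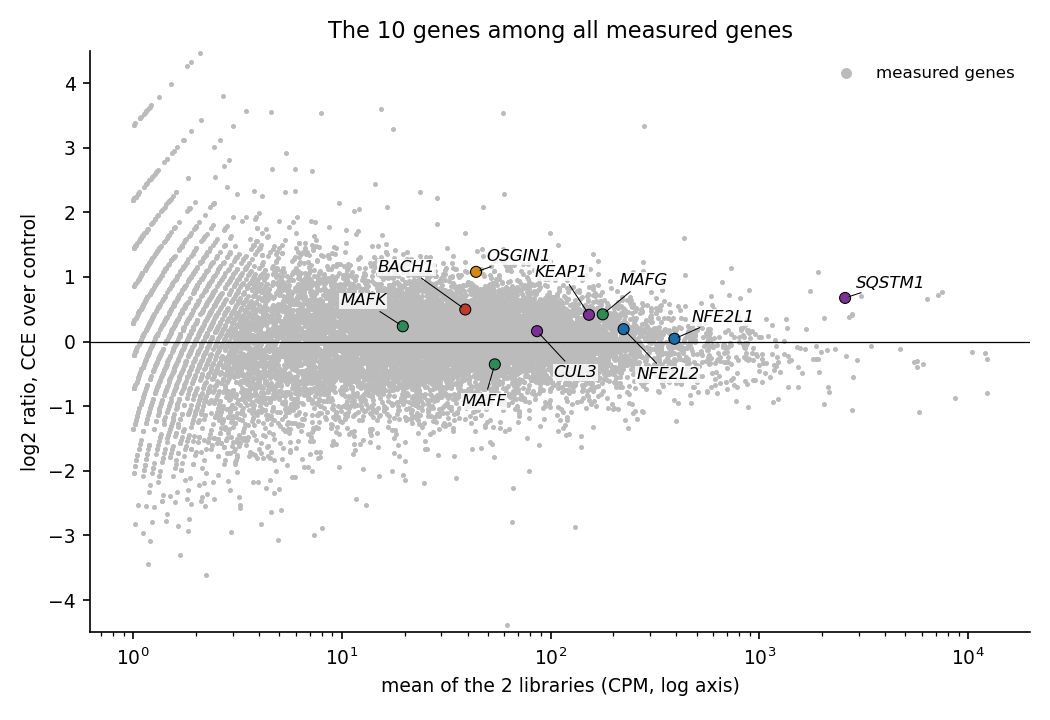
Log2 ratio, CCE over control, against the mean of the 2 libraries (CPM, log axis) for measured genes with counts in both libraries (grey; 5 lie beyond the vertical axis) and for the 10 genes, coloured by role as in the plot of ratios. SQSTM1 stands to the right, at 3167 CPM in the CCE library and 1983 CPM in the control library, and OSGIN1 stands highest of the 10 at 1.08.

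Levels were compared between genes per exonic length. Counts per kilobase of the union of annotated exons were scaled to the same total over all annotated genes in each library. That scale serves for comparing genes within a library. The gene models used for counting are not given, so these lengths may differ from those counted on, which the intervals do not cover. In the CCE library the order was SQSTM1 at 1166, NFE2L1 at 188, KEAP1 at 136, MAFG at 108, NFE2L2 at 44.2, OSGIN1 at 29.8, MAFF at 23.5, CUL3 at 21.9, BACH1 at 16.5 and MAFK at 13.2. Neighbours in this order differed beyond counting error except MAFF (22.4 to 24.6) and CUL3 (21.2 to 22.7). In the control library MAFF, at 27.1, stood above CUL3 at 17.7, and OSGIN1, BACH1 and MAFK closed the order at 12.7, 10.6 and 10.1, with overlapping intervals. On this scale OSGIN1 ranked above MAFF and CUL3 in the CCE library and below both in the control library; by longest transcript OSGIN1 and CUL3, at 23.5 and 24.0 in the control library, had overlapping intervals, and by FPKM OSGIN1 stood above CUL3 there. By the longest annotated transcript, NFE2L2 was placed higher, at 101 in the CCE library and 81.6 in the control library, above MAFG at 87.3 and 59.9, because its exon union of 14975 bases is far longer than its longest transcript of 5104 bases. By either length SQSTM1 was highest and MAFK lowest in both libraries, though in the control library MAFK and BACH1 had overlapping intervals. By FPKM MAFK was not the lowest: CUL3 had 4.03 beside 4.93 for MAFK in the CCE library. In the control library BACH1 was listed at 0 FPKM and MAFK at 6.96.

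The authors' FPKM values, summed over the rows of each gene, placed several members on the other side of 0. SQSTM1 had 1036 FPKM in the CCE library and 605 in the control library, and OSGIN1 21.0 and 12.3, both 1.71-fold higher. KEAP1 had 9.36 FPKM in the CCE library and 21.4 in the control library, and CUL3 4.03 and 9.67, so both were lower by this measure and higher by counts. MAFG had 31.8 FPKM in the CCE library and 40.1 in the control library, and NFE2L1 39.8 and 50.9. NFE2L2 had 17.1 and 17.3 FPKM, MAFF 15.02 and 15.25, and MAFK 4.93 and 6.96. BACH1 had 8.30 FPKM in the CCE library and was listed at 0 in the control library, in all of its 13 rows, although it had 180 counts there. Of the 9 genes above 0 FPKM in both libraries, 3 kept the sign they had by counts (SQSTM1, OSGIN1 and MAFF), and 6 were above 0 by counts and below 0 by FPKM. No FPKM ratio over all measured genes is given here to set beside these 9.

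The FPKM rows carry no transcript name; gene IDs stand in the same order in both libraries, and the rows of a gene were matched by position. The highest row was the same in both libraries for 7 of the 10 genes. For SQSTM1 it held 97.6% of the FPKM in the CCE library and 97.7% in the control library, and for OSGIN1 98.5% and 97.2%. For KEAP1 the highest row had 3.57 FPKM in the CCE library and 17.4 in the control library, 38.1% and 81.3% of the gene's total. NFE2L2 was spread over more rows. Row 2, the highest in the CCE library, had 6.72 FPKM there and 3.20 in the control library, while row 3, the highest in the control library, had 4.03 and 10.8. FPKM values carry no depth, so no interval is given for them.

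Ratios over all genes leaned with base composition, which differs among the members. Measured protein-coding genes were split into 5 equal bins by GC content of the longest transcript, and the median log2 ratio was 0.18 in the lowest bin and -0.13 in the highest. CUL3, BACH1 and NFE2L2 have 37.6%, 38.6% and 40.5% GC, and the other 7 genes 54.8% to 63.4%. Set against the median of the genes nearest in GC content, the log2 ratios of NFE2L2 and CUL3 were 0.02 and -0.01, and that of BACH1 was 0.24. OSGIN1 had 1.27 on this scale, SQSTM1 0.73, KEAP1 0.54, MAFG 0.48, MAFK 0.42, MAFF -0.18 and NFE2L1 0.07. The part of library preparation in this lean was not tested.

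**Figure D4:**
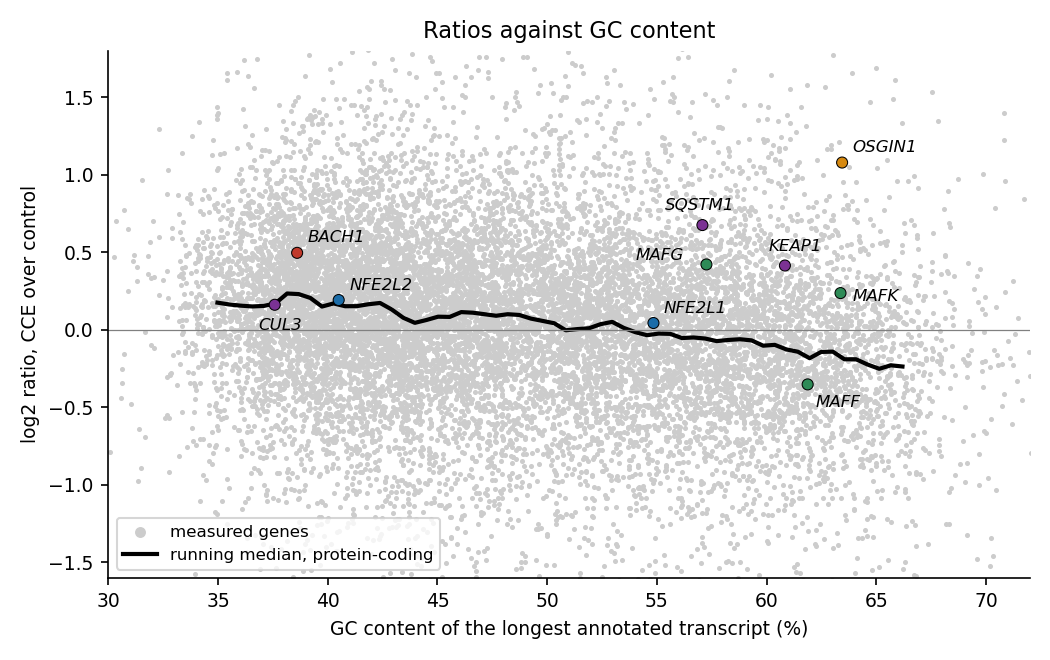
Log2 ratio, CCE over control, against GC content of the longest annotated transcript (percent) for measured genes (grey), the running median of protein-coding genes (black line) and the 10 genes, coloured by role as in the plot of ratios. The line slopes down; NFE2L2 and CUL3 lie on it, OSGIN1, SQSTM1, KEAP1, MAFG and MAFK lie above it, and MAFF lies below it. Genes beyond the axes are not drawn.

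Other genes of the pathway were read in 12 lists of 203 genes, 1 of them in 2 lists, of which 202 matched a counted ID. Genes named from each list are those with the largest log2 ratios by a fixed rule. The effector targets of NRF2 and BACH1 stood highest: 21 of 32 measured genes were called at least 1.5-fold higher and 0 lower, where 12.1% and 11.3% of all measured genes were called, with a median log2 ratio of 0.88, against 0.05 over all measured genes. By FPKM at a pseudocount of 1 the median was 0.47, with 21 genes above 0 and 9 below. They included HMOX1, the heme oxygenase gene repressed by BACH1, with 509 CPM in the CCE library and 50.5 CPM in the control library, and the cystine transporter gene SLC7A11, with 656 and 215 CPM. AKR1C1 and AKR1B10, reductases with close paralogs, had 518 and 338 counts in the CCE library and 7 each in the control library. This list largely repeats a pattern already known in these data and is set here beside the regulators, whose median by counts was 0.33. That median is not robust to the measure: of the 9 regulators above 0 FPKM in both libraries, 6 were above 0 by counts and below 0 by FPKM.

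The partners of SQSTM1 in selective autophagy also had more genes higher than lower. Of 18 measured, 5 were called higher and 0 lower, where 12.1% and 11.3% of all measured genes were called. The median log2 ratio was 0.49 (0.07 by FPKM at a pseudocount of 1). TAX1BP1, a cargo receptor related in function to p62, had 334 CPM in the CCE library and 171 CPM in the control library, a log2 ratio of 0.96 (0.87 to 1.06). TBK1, the kinase that phosphorylates autophagy receptors, had 0.75 (0.53 to 0.99), and the ATG8 family genes GABARAPL1 and MAP1LC3B had 0.68 and 0.58, MAP1LC3B at the very edge of the call. The fifth called gene, GABARAP, falls outside the naming rule for its low level and is named for that reason after its values were seen: it had 4.61 CPM in the CCE library and 2.52 CPM in the control library, but 13.5 and 203 FPKM, and shares exon bases with a gene on its own strand.

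The ligase machinery and the KEAP1-independent routes of NRF2 turnover had no calls by counts, while other CUL3 adaptors had calls in both directions. Of 13 measured genes of the CUL3-RBX1 ligase and its NEDD8 cycle, 0 were called in either direction, with a median of 0.05. CAND1, the exchange factor of cullin ligases, had 0.29 and COPS2, of the COP9 signalosome, 0.30, while COPS3 had -0.41 and the NEDD8-conjugating enzyme gene UBE2M -0.39. Of 24 measured genes of other CUL3 adaptors, 5 were called higher and 2 lower, where 12.1% and 11.3% of measured genes were called. The adaptor median was 0.21 by counts and 0 by FPKM at a pseudocount of 1. The mitotic adaptor gene KLHL21 had 0.77, while ENC1, whose product is known to lower NRF2 protein, had -1.33 (-1.49 to -1.17) and BTBD9 -0.84. Of 11 measured genes of KEAP1-independent turnover, 0 were called; the F-box genes FBXW11 and BTRC, which recognise phosphorylated NRF2, had 0.58 and 0.46, CUL1 0.44 and the deubiquitinase gene USP11 -0.47.

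Genes whose products bind KEAP1, process NRF1 or pair with the same transcription factors had few calls in each list. Of all measured genes, 12.1% were called higher and 11.3% lower. Of 11 measured KEAP1-binding competitors, 1 was called higher and 1 lower: PALB2, a BRCA2 partner, had 1.26 (0.93 to 1.61) and NIBAN2 -0.67 (-0.72 to -0.63). The other 2 named were the replication gene MCM3 at -0.53 and PTMA at 0.06. Of 12 measured genes of NRF1 processing, 1 was called higher, NGLY1, the deglycosylase that matures NRF1, at 0.75 (0.53 to 0.99), and 0 lower; SEL1L of the membrane export complex had 0.51 and HCFC1 -0.55. Of 7 other CNC and MAF genes, NFE2L3 alone was measured; it had 95.4 CPM in the CCE library and 161 CPM in the control library, a log2 ratio of -0.76 (-0.87 to -0.65), and overlaps HNRNPA2B1 on the opposite strand. Of 12 measured other bZIP partners, JUN at -0.68 and JUND at -0.65 were called lower and 0 were called higher; CEBPB had -0.43 and CREB1 0.48.

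Of 15 coactivators and corepressors, 1 was called higher and 1 lower. For this list, the kinases and the proteasome genes, the shares over all measured genes were 12.1% called higher and 11.3% lower. NCOA3 was the coactivator called higher, at 1.01 (0.79 to 1.24), with NCOR1 at 0.56 and NCOA1 at 0.54. Of 11 kinases, MAP3K7 was called higher at 0.65 and FYN, which acts in nuclear export of NRF2, lower at -0.82; CSNK2A1 had 0.32 and PRKCD -0.29. Proteasome subunit genes, the classic NRF1 targets, had a median of -0.05, with 1 of 30 called higher and 1 lower. PSMA2 at 0.72 was the gene called higher, and PSMA6 at -0.83 the one called lower; PSMA6 lies under the level set for naming and is named after its values were seen. Both share exon bases with another gene on their own strand, and both were low by counts, at most 13.6 CPM in either library, and high by FPKM, at 43.98 or more in both. Among the rest, PSMC6 had -0.39, PSMB4 -0.32 and PSMC1 -0.29. Of the 45 genes that the naming rule chose from the lists, 42 were above 0 FPKM in both libraries, and 7 of these lay on the other side of 0 by FPKM: COPS2, KLHL21, FBXW11, HCFC1, NCOR1, CSNK2A1 and PSMA2.

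**Figure D5:**
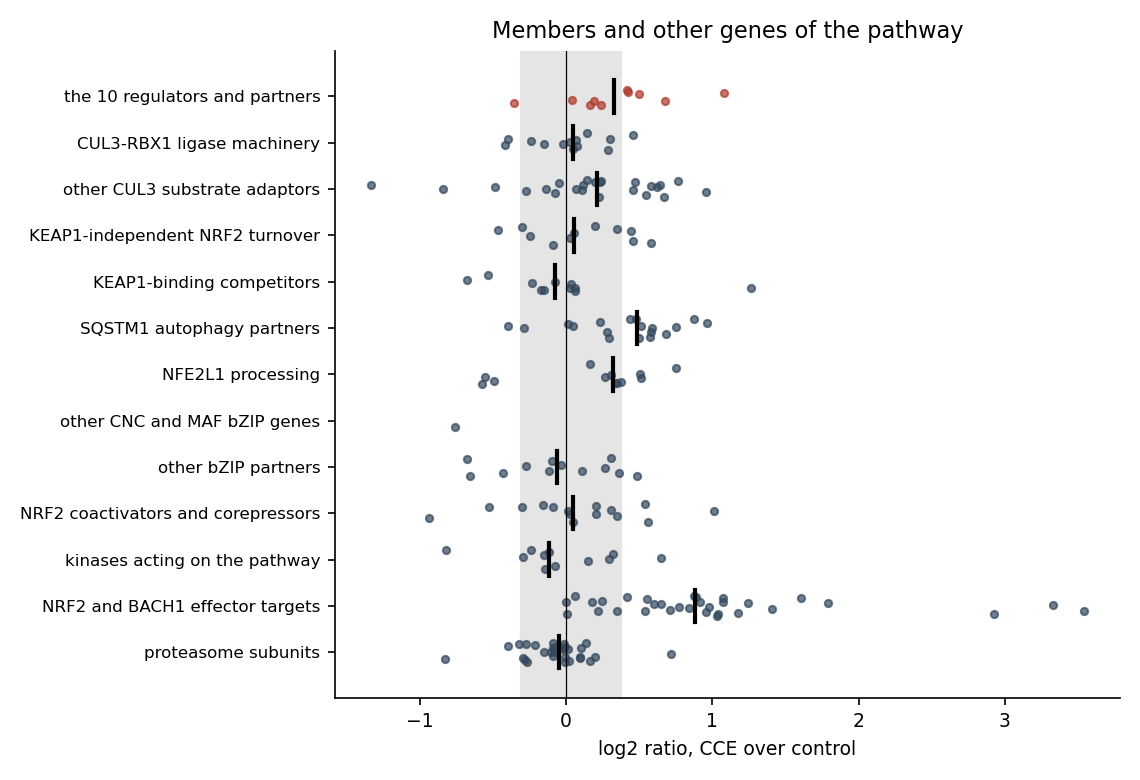
Log2 ratio, CCE over control, of the 10 regulators and partners (red) and of the measured genes of each other pathway list (dark blue), 1 point per gene; vertical position within a row is spread for legibility, black ticks are medians of lists with at least 5 measured genes, and the grey band is the interquartile range of all measured genes, -0.31 to 0.38. The median tick of the effector targets stands at 0.88 and that of the SQSTM1 autophagy partners at 0.49, both right of the band, that of the 10 at 0.33, inside it, and that of the proteasome genes at -0.05.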

How the data were processed

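RNA sequencing of MDA-MB-231 gave 1 CCE and 1 control library. The authors deposited raw counts per Ensembl gene and FPKM values. Per the submitters' processing notes, HISAT2 and the build hg19 (GRCh37) were used. Neither the counting program and whether it used strand, nor the gene models, nor how FPKM were computed is given in the sources used here. Rows that name no gene (66.8% of CCE and 62.9% of control records) were left out. Gene names, exons and positions were taken from a GENCODE annotation on GRCh37; 55665 of 63677 IDs matched. PSMB3 was not analysed here.

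Counts were scaled by TMM (edgeR 4.0.16, R 4.3.3), with factors 1.01 for CCE and 0.987 for control. Ratios, CCE over control, carry Clopper-Pearson intervals (scipy 1.17.1). Pair ratios carry exact conditional intervals. A call needed 1.5-fold and an interval excluding 1. FPKM rows were summed per gene. Named list genes are up to 4 per list with a mean of at least 5 CPM, an interval excluding 1 and the largest absolute log2 ratio; some of these are not reported here. The members and lists were chosen with earlier results of these data known. The ratio and call functions were tested on simulated data with counting error alone. That check of the functions says nothing of how cultures vary.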

Additional observations from a re-analysis of the deposited data

How the results depend on the processing

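The calls of SQSTM1 and OSGIN1 held with DESeq2 (1.42.0), upper-quartile or total-count scaling, and both passed 1.5-fold by FPKM, where no interval can be had. At 2-fold 1 gene was called higher. Among the 2 genes with no overlap with a counted gene, KEAP1 and CUL3, 0 were called. Neither was called by the main rule, so this restriction cannot show whether overlap affects the calls of SQSTM1 and OSGIN1. By FPKM, with the fold alone as the criterion, 2 of 9 genes were past 1.5-fold lower, against 0 called by counts with the interval. The share of all measured genes past that fold by FPKM is not given here. The 2 of 9 therefore cannot be told from a lean of the FPKM values over all genes. In an alternative chosen after seeing the data, ratios between 2 members were taken by FPKM: 2 of 7 turned direction, KEAP1 to NFE2L2 at 0.440 and MAFF to MAFG at 1.24 times the control ratio. Under the 3 scalings 9 of the 10 log2 ratios kept their sign, the exception being NFE2L1 at -0.0011 by upper quartile; SQSTM1 alone left its interval, at 0.71 by total counts and 0.63 by upper quartile. By FPKM at pseudocounts of 1 and 0.1, the log2 ratios were -0.012 and -0.013 for NFE2L2, -0.35 and -0.35 for NFE2L1, -1.12 and -1.19 for KEAP1, -1.09 and -1.24 for CUL3, -0.33 and -0.33 for MAFG, -0.021 and -0.022 for MAFF, -0.43 and -0.49 for MAFK, 0.77 and 0.78 for SQSTM1, and 0.73 and 0.77 for OSGIN1; the cause was not tested. BACH1, listed at 0 FPKM in the control library, has no FPKM ratio. Centred on genes of like GC content, NFE2L2 had 0.020, CUL3 -0.015, KEAP1 0.54, BACH1 0.24 and SQSTM1 0.73; centred on genes of like exonic length, NFE2L2 had 0.10, NFE2L1 -0.047 and SQSTM1 0.59.

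The interval of a list median is taken from the ranked ratios of its genes and is not a counting interval. It can be wide, as for the CUL3-RBX1 ligase at -0.24 to 0.29. List medians stayed within these intervals under the 3 scalings and both count filters, which is a loose check. By FPKM at pseudocounts of 1 and 0.1 they were -0.36 and -0.37 for KEAP1-independent turnover and 0.12 and 0.13 for KEAP1-binding competitors. SQSTM1 partners had 0.070 and 0.076, kinases -0.43 and -0.46, effector targets 0.47 and 0.48, and proteasome genes -0.31 and -0.31. The CUL3-RBX1 ligase had -0.14 and -0.54, other CUL3 adaptors 0 and 0, and NRF1 processing 0.046 and 0.048. Other bZIP partners had -0.043 and -0.045, and coactivators and corepressors 0.086 and 0.088. Centred on GC content, the proteasome median was -0.15. No paired analysis was possible because each group has 1 library. The 5633569 control counts set the precision: BACH1, MAFK and OSGIN1, with 180, 100 and 157 control counts, have the widest intervals.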
